A study of Mus musculus with 6 samples.

Results

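The 10 genes described here encode plasma membrane transporters of amino acids and were chosen by symbol from the 54525 gene rows of the count tables. *Slc1a4*, *Slc1a5*, *Slc3a2*, *Slc7a1*, *Slc7a5*, *Slc7a11*, *Slc38a1*, *Slc38a2* and *Slc38a4* were listed as transporters of neutral and cationic amino acids and of cystine. Earlier results of these data were known when they were listed. *Slc1a3*, a glutamate transporter, was added because of its own rise in these libraries, so its values at both times chose it and are given as a description, with no test. RNA-seq was performed on wild-type, untreated C2C12 cells, an established line of mouse myoblasts, with 3 libraries of myoblasts at day 0 (D0) and 3 libraries of myotubes at day 5 of differentiation (D5). D0 cells were kept in growth medium with fetal bovine serum and D5 cells in differentiation medium with horse serum, so the change of medium, exit from the cell cycle and differentiation cannot be told apart. C2C12 is 1 immortalized line, and the labels do not say whether the 3 libraries of a group came from separate passages, so p-values measure the spread between these libraries.

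Amino acids cross the plasma membrane on carriers that differ in their substrates and driving force. SLC1 proteins couple uptake to sodium: SLC1A3 carries glutamate and aspartate, whereas SLC1A4 and SLC1A5 exchange neutral amino acids such as serine, alanine and glutamine. SLC3A2 is a heavy chain that brings SLC7 light chains to the cell surface, among them SLC7A5 for leucine and other large neutral amino acids and SLC7A11 for the exchange of cystine and glutamate. SLC7A1 carries lysine, arginine and ornithine without a heavy chain, and the SLC38 proteins take up glutamine and alanine with sodium. In muscle these carriers supply protein synthesis and the mTORC1 pathway, and the transcription factor ATF4 raises the expression of several of them when amino acids are scarce.

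The libraries held 36555048 to 40895840 counts on genes at D0 and 25449759 to 25811300 at D5. The limit of detection was set at 3 counts per library, which corresponds to 0.0713 to 0.0800 CPM (counts scaled to a library of 1000000 after TMM scaling) at D0 and 0.119 to 0.122 CPM at D5, and covers counting error only. Of 8 myoblast and myotube markers, *Myod1*, *Myf5* and *Pax7* fell and *Myog*, *Mymk*, *Myh3*, *Ckm* and *Acta1* rose, although the cell type field of the labels reads myoblasts for both groups. The 8 proliferation markers all fell, from a summed level of 1200 to 1230 TPM (counts per exonic length, scaled to a total of 1000000 per library) at D0 to 85.7 to 90.7 TPM at D5, led by *Ccna2*, *Mki67* and *Ccnb1*. Their part in the changes of the transporters was not tested. ERCC spike-ins, synthetic RNAs added to the samples, took 0.726% to 0.859% of each D0 library and 0.720%, 1.204% and 2.087% of the D5 libraries.

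All 10 genes were found on GRCm38 in the GENCODE M21 annotation, and none shares an exonic base with another annotated gene. *Slc38a1* (chromosome 15, 96571418 to 96642913), *Slc38a2* (96687392 to 96699730) and *Slc38a4* (96994820 to 97055956) are 3 consecutive protein-coding genes on the minus strand and span 484.5 kb. *Slc1a3* lies on the same chromosome, from 8634124 to 8710764, also on the minus strand. The other members lie on separate chromosomes: *Slc1a4* on 11 (20302180 to 20332713, minus), *Slc1a5* on 7 (16781340 to 16798274, plus), *Slc3a2* on 19 (8706882 to 8723369, minus), *Slc7a1* on 5 (148327410 to 148399904, minus), *Slc7a5* on 8 (121881150 to 121907694, minus) and *Slc7a11* on 3 (49892526 to 50443614, minus). Between 0% and 4.23% of the 50-base stretches of their transcripts also occur in transcripts of other genes. The highest share is that of *Slc38a1*, where 641 of 721 shared stretches lie in 4632432E15Rik, so reads from those stretches could belong to either gene.

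Promoters were available in the RefSeq table for 7 of the 10 genes (GRCm38.p6, from 250 bases before to 50 after the start). Both strands were searched for TGATGNAAN, the C/EBP-ATF response element through which ATF4 acts, for CAGCTG, an E-box of the kind that MyoD binds, and for TGACNNNGC, the antioxidant response element. Of 32851 promoters in the table, 3.95%, 16.3% and 12.4% held these motifs. The C/EBP-ATF letters occurred in *Slc7a11*, once on each strand, and in *Slc1a4*. The E-box occurred in *Slc7a1* and *Slc38a4*, and the antioxidant response element in *Slc7a1* and *Slc38a2*. The 7 genes had 10 promoter windows in all, and *Slc7a1* and *Slc38a4* had further windows without a match. None of the 3 motifs was found in the windows of *Slc1a3* and *Slc3a2*. The stretches below are those of the 2 genes with C/EBP-ATF letters, of the 2 with an E-box, and of *Slc1a3* for comparison, each 5′ to 3′ on the minus strand with the motif in capitals. A match describes the sequence and says nothing of binding in these cells.
Slc7a11, chr3:50443614-50443713, bases -100 to -1 from the start: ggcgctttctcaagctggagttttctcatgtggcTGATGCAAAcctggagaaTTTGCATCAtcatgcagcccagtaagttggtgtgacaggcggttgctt
Slc1a4, chr11:20332710-20332738, bases -25 to 4: gcctccagcgtgcctcctgcGTTGCATCA
Slc7a1, chr5:148400060-148400105, around the E-box at -181: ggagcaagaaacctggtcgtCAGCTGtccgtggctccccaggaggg
Slc38a4, chr15:97056075-97056120, around the E-box at -144: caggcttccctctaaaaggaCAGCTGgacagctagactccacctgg
Slc1a3, chr15:8710808-8710907, bases -100 to -1, no motif: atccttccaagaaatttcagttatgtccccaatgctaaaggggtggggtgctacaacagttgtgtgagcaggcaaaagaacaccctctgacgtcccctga

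The glutamate transporter *Slc1a3* was detected in myotubes and not in myoblasts, and the other 9 transporters were lower in myotubes. The 9 genes other than *Slc1a3* were called lower at D5 by edgeR's quasi-likelihood test with Benjamini-Hochberg adjustment over 16290 genes, against 40.8% of all genes tested that were called lower and 42.2% called higher. Each of the 9 had every D5 library below every D0 library in CPM, as did 41.1% of all genes tested, while 42.2% had every D5 library above every D0 library. Their median log2 fold change was -1.0, beside 0.002 over all genes tested. Because these 9 genes were listed with earlier results of these data known, the contrast with all genes is a description. The declines ranged from a level at D5 that was 90.8% of the D0 level for *Slc38a2* to one under the detection limit for *Slc38a4*. Summed over the 10 genes, the level per length was 901, 924 and 904 TPM in the D0 libraries and 535, 521 and 526 TPM in the D5 libraries. In bulk RNA, fewer cells that express a gene and less of its RNA per cell cannot be told apart.

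**Figure D1:**
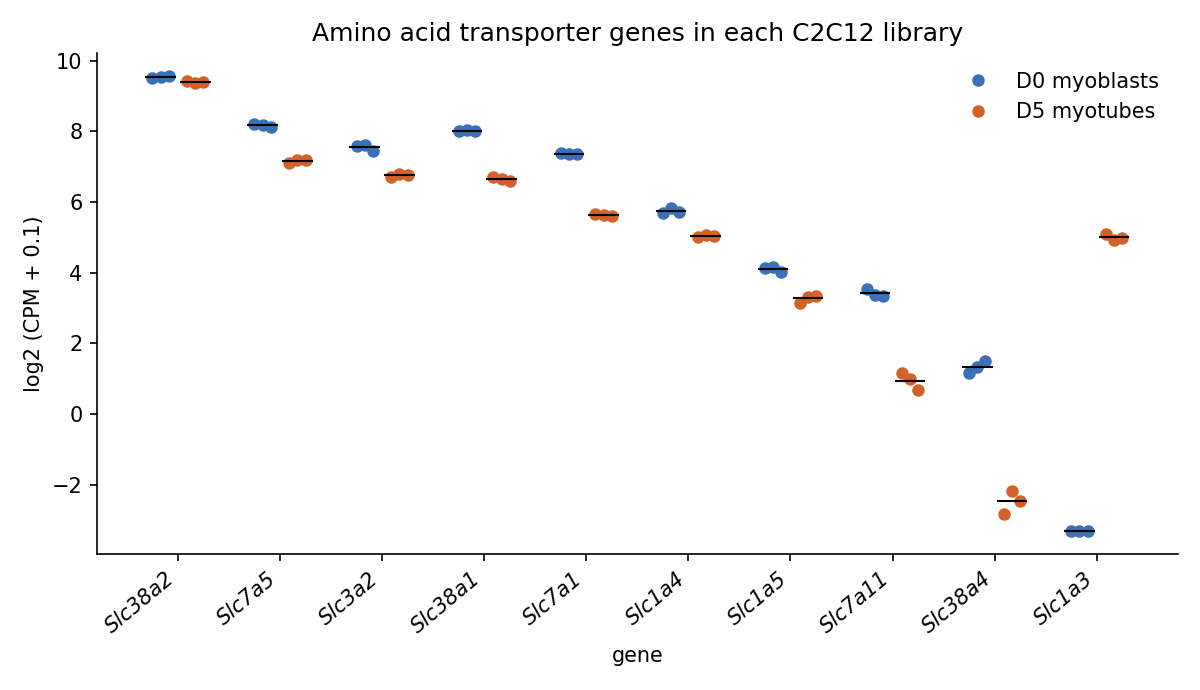
Level of each transporter gene in each library, as log2 of CPM plus 0.1, with genes on the x axis in the order of their TPM at D0. Blue points are the 3 D0 libraries, orange points the 3 D5 libraries and black lines the group means. *Slc1a3* had 0 counts in the 3 D0 libraries and 753 to 854 counts at D5, and the D5 points of the other 9 genes lie below their D0 points.

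*Slc1a3* encodes the sodium-coupled glutamate and aspartate transporter known as GLAST or EAAT1, which is best known from astrocytes. It had 0, 0 and 0 counts at D0 and 854, 753 and 780 counts at D5, or 34.0, 30.5 and 31.3 CPM. The D5 libraries lay close together, and the D5 level was at least 424-fold higher than the limit of 3 counts per library at D0. Per length, *Slc1a3* reached 11.6 ± 0.895 TPM (SD, n = 3) at D5, between *Slc7a1* and *Slc1a5* in the order of the members. The values that chose the gene are these. The other members were listed by symbol, with earlier results of these data known, and no threshold separates them.

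Glutamate carriers of the SLC1 family other than *Slc1a3* had 33 counts or fewer in each library. *Slc1a6* (EAAT4) had 3, 1 and 2 counts at D0 and 29, 33 and 31 at D5, at least 16.6-fold higher (edgeR, adjusted p = 7.6e-12). *Slc1a2* (GLT-1), the main glutamate transporter of the forebrain, went from 20, 17 and 15 counts to 1, 6 and 2 (log2 fold change -1.82, SE 0.47, edgeR adjusted p = 9.2e-04). The value for *Slc1a2* was -2.78 without D5 replicate 2 and -1.4 without D5 replicate 1, and without D0 replicate 1 or 2 the gene was too low to test. *Slc1a1* was listed at 0 in the 6 libraries and *Slc1a7* had at most 1 count. *Slc1a6* and *Slc1a2* were named after their values were seen. Summed over the 5 glutamate carriers, the level was 0.292, 0.170 and 0.180 TPM at D0 and 14.3, 12.9 and 13.2 TPM at D5, and *Slc1a3* made up 88.1%, 84.6% and 86.0% of the D5 sums.

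Markers of other cell types were compared in the same libraries. Of 8 glial markers, *Aqp4* and *Olig2* were listed at 0 in the 6 libraries, *Gfap* had 2 to 5 counts, *Sox10* at most 1 and *S100b* at most 3. *Aldh1l1* rose from 12, 14 and 7 counts to 40, 28 and 39, while *Slc1a2* fell as given above, and the summed level of the 8 was 1.5 to 1.64 TPM at D0 and 1.57 to 1.95 TPM at D5. The 6 macrophage markers summed to 18.2 to 18.6 TPM at D0 and 13.9 to 15.7 TPM at D5, with *Adgre1* listed at 0 and *Ptprc* at 1 count at most, while *Lyz2* went from 1, 1 and 0 counts to 4, 10 and 13 and was not tested. The 4 endothelial markers summed to 1.54 to 1.64 TPM at D0 and 0.263 to 0.512 TPM at D5. The 6 adipocyte markers summed to 21.5 to 23.7 TPM and then 7.28 to 8.99 TPM, nearly all from *Pparg*, with *Cfd* and *Lep* listed at 0.

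Among 16282 genes, the 5 whose log2 TPM (plus 0.1) over the 6 libraries lay nearest to that of *Slc1a3* were *Lum*, *Lrrc26*, *Gm5479*, *Myh6* and *Gm28932*, at Euclidean distances of 0.307, 0.341, 0.358, 0.415 and 0.421. *Lum*, which encodes the extracellular matrix proteoglycan lumican, had 0 counts in the D0 libraries and 301, 209 and 235 at D5. *Myh6*, the alpha heavy chain of cardiac myosin, had 0, 1 and 0 counts at D0 and 584, 719 and 690 at D5. These 5 genes, like *Slc1a3*, were at or under the limit in the D0 libraries, which follows from a search by distance to its values.

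The neutral amino acid exchangers *Slc1a4* (ASCT1) and *Slc1a5* (ASCT2) are relatives of *Slc1a3* in the same family and moved the other way. *Slc1a4*, which carries serine, alanine and cysteine, had 51.1, 56.3 and 52.1 CPM at D0 and 31.9, 33.2 and 32.5 CPM at D5 (log2 fold change -0.71, SE 0.047, edgeR adjusted p = 1.2e-14). *Slc1a5*, a glutamine exchanger, had 17.4, 17.9 and 16.1 CPM at D0 and 8.71, 9.85 and 10.1 CPM at D5 (log2 fold change -0.84, SE 0.072, edgeR adjusted p = 6.6e-12). The groups did not overlap for either gene. Per length, *Slc1a4* was the more abundant, at 46.9 ± 2.76 and 25.7 ± 0.168 TPM (SD, n = 3) against 14.2 ± 0.684 and 7.10 ± 0.437 TPM for *Slc1a5*. At D5, *Slc1a3* exceeded *Slc1a5* in TPM in the 3 libraries.

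The heavy chain *Slc3a2* (CD98hc) and its light chain *Slc7a5* (LAT1) were, in TPM, the most abundant members after *Slc38a2* at both times. *Slc3a2* had 192, 194 and 175 CPM at D0 and 104, 111 and 108 CPM at D5 (log2 fold change -0.80, SE 0.039, edgeR adjusted p = 4.9e-18). *Slc7a5* had 298, 290 and 276 CPM at D0 and 137, 147 and 147 CPM at D5 (log2 fold change -1.0, SE 0.036, edgeR adjusted p = 2.8e-21). Both subunits therefore had lower levels at D5 in each library, and the ratio of their TPM shifted less than the levels, from 1.47 ± 0.0390 *Slc7a5* per *Slc3a2* at D0 to 1.27 ± 0.0205 at D5 (SD, n = 3), without overlap. With 3 libraries against 3, the smallest two-sided p of an exact permutation test is 0.1, and ratios and shares are given with their spread and no test.

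*Slc7a11* (xCT), the light chain that imports cystine in exchange for glutamate, had a larger decline than *Slc7a5*. It had 427, 435 and 407 counts at D0 and 53, 46 and 37 at D5, or 11.4, 10.3 and 10.1 CPM and then 2.11, 1.87 and 1.49 CPM. The level was 5.83-fold lower at D5 (log2 fold change -2.54, SE 0.12, edgeR adjusted p = 2.7e-18). Its share of the TPM of the 6 light chains that pair with SLC3A2 went from 0.870 ± 0.0325% to 0.279 ± 0.0543% (SD, n = 3). The genes for the 2 subunits of glutamate-cysteine ligase, which uses cysteine for glutathione synthesis, fell as well: *Gclc* by 0.90 on the log2 scale (edgeR adjusted p = 1.1e-16) and *Gclm* by 1.04 (adjusted p = 1.0e-17). *Gclc* was named after its values were seen.

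Of the other light chains, *Slc7a6* (y+LAT2) fell by 0.23 on the log2 scale (edgeR adjusted p = 3.1e-05, and adjusted p = 0.24 with the spike-ins) and *Slc7a7* (y+LAT1) rose by 2.47 from 7, 9 and 8 counts to 32, 29 and 23 (adjusted p = 1.3e-08). These exchangers of cationic and neutral amino acids were named after their values were seen. *Slc7a8* had at most 2 counts and *Slc7a10* was listed at 0. The 6 light chains together had 303 ± 7.13 TPM at D0 and 146 ± 1.28 TPM at D5, or 1.65 ± 0.0437 and 1.54 ± 0.0162 per *Slc3a2* (SD, n = 3). *Slc7a5* made up 88.5% to 89.0% of them at D0 and 81.5% to 83.3% at D5, and *Slc7a6* 10.1% to 10.6% and then 15.8% to 17.3%.

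The cationic amino acid transporters exchanged ranks. *Slc7a1* (CAT1), the widely expressed carrier of arginine and lysine, had 166, 164 and 163 CPM at D0 and 50.4, 49.2 and 48.4 CPM at D5 (log2 fold change -1.74, SE 0.036, edgeR adjusted p = 1.4e-27). *Slc7a2* (CAT2), its relative, rose from 14.4 ± 0.501 to 106 ± 3.99 CPM (SD, n = 3, log2 fold change 2.88, SE 0.046, adjusted p = 1.5e-30), the largest rise among the other amino acid transporters listed that had a mean of at least 100 counts in a group. *Slc7a3* (CAT3) had 14, 22 and 19 counts at D0 and 0, 1 and 3 at D5 (edgeR adjusted p = 1.6e-05). Its D0 level was 3.78-fold above the limit of 3 counts per library at D5. The gene was too low to test without D0 replicate 2 or 3 and was named after its values were seen. Per length, *Slc7a1* made up 89.6%, 89.5% and 88.9% of the 3 genes at D0 and 26.7%, 27.7% and 26.3% at D5, and *Slc7a2* made up 9.62% to 10.3% and then 72.2% to 73.6%. The sum of the 3 genes changed much less than either, from 54.7, 55.2 and 55.8 TPM to 51.9, 47.1 and 49.3 TPM, with every D5 library below every D0 library.

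The 3 neighbouring *Slc38a* genes on chromosome 15 differed in the size of their declines. *Slc38a2* (SNAT2), the amino acid-regulated carrier of system A, had the highest TPM of the members at both times and the smallest decline, with 726, 740 and 761 CPM at D0 and 686, 663 and 674 CPM at D5 (log2 fold change -0.14, SE 0.032, edgeR adjusted p = 2.3e-04). *Slc38a1* (SNAT1), a glutamine carrier, had 259, 262 and 258 CPM at D0 and 105, 101 and 96.0 CPM at D5 (log2 fold change -1.37, SE 0.035, edgeR adjusted p = 3.5e-25). *Slc38a4* (SNAT4), known from liver and placenta, had 79, 102 and 110 counts at D0 and 1, 3 and 2 at D5, which is at least 20.1-fold lower (edgeR adjusted p = 6.0e-14). The decline of *Slc38a2* was small beside the others but larger than the spread between libraries, and with libraries scaled to the ERCC spike-ins it was -0.71 and no longer past the threshold (adjusted p = 0.28).

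The make-up of the 3 genes shifted with these declines. *Slc38a2* per *Slc38a1* in TPM rose from 5.46, 5.51 and 5.76 to 12.8, 12.8 and 13.7. *Slc38a2* made up 84.1% to 84.7% of the 3 genes at D0 and 92.7% to 93.2% at D5, and *Slc38a4* 0.506% to 0.630% and then 0.0112% to 0.0353%. Their summed level was 332, 345 and 357 TPM at D0 and 265, 247 and 252 TPM at D5.

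**Figure D2:**
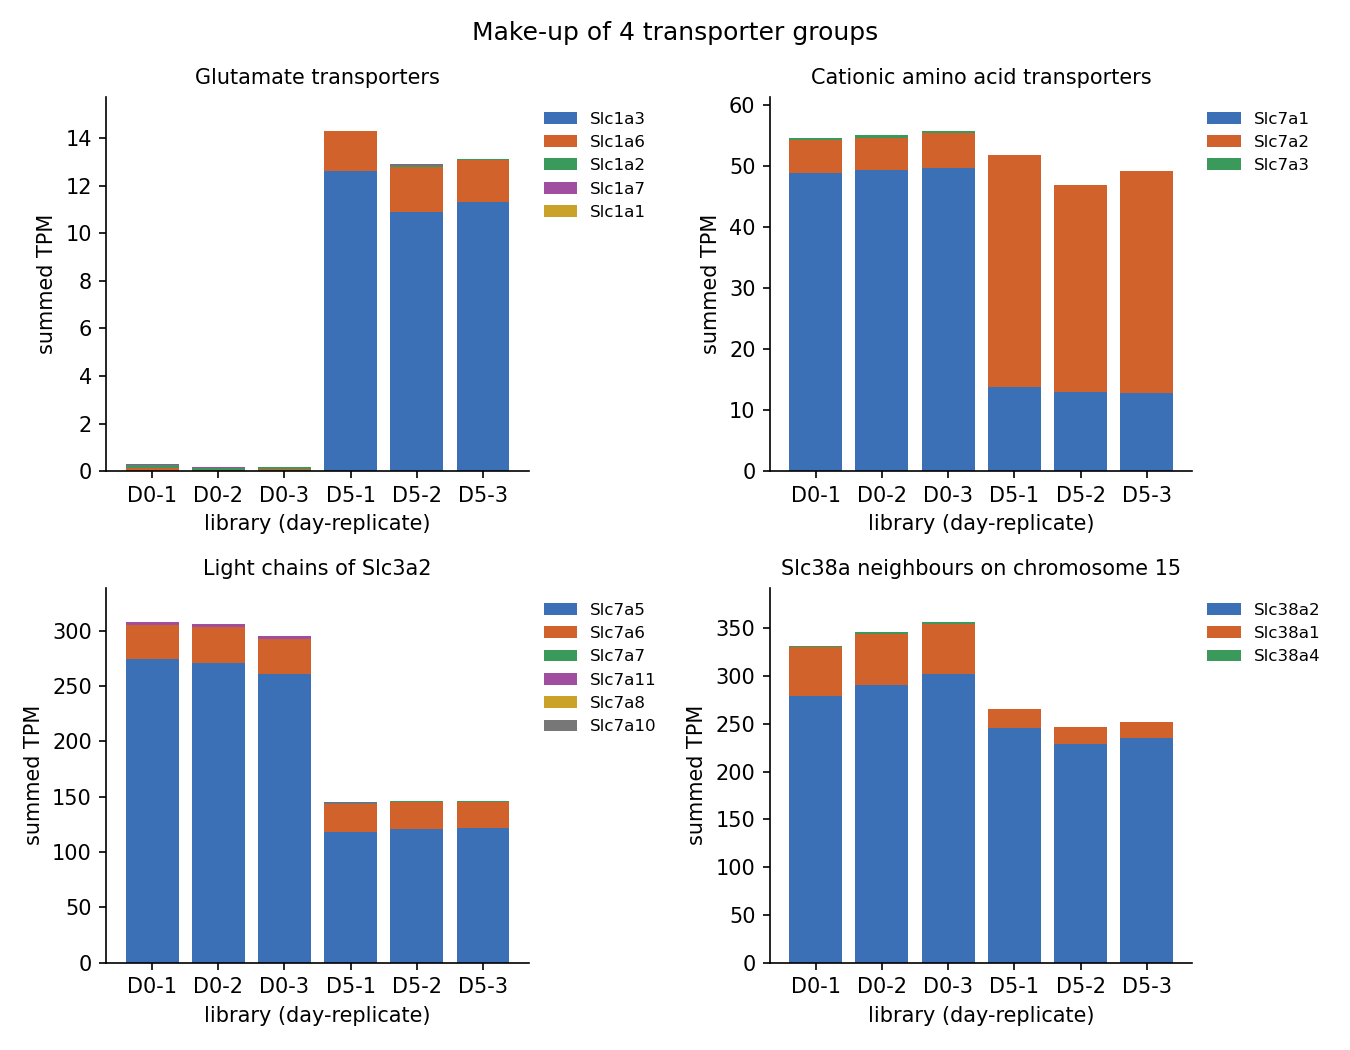
Summed TPM (y axis) in each library (x axis, day and replicate), stacked by gene, for glutamate transporters, cationic amino acid transporters, light chains of SLC3A2 and the *Slc38a* neighbours. Each panel has its own scale from 0. *Slc1a3* fills most of the D5 bars of the first panel, and in the second *Slc7a2* replaces *Slc7a1* as the larger part of bars that go from 54.7 to 55.8 TPM at D0 to 47.1 to 51.9 TPM at D5.

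By TPM, the order of the members at D0 was *Slc38a2*, *Slc7a5*, *Slc3a2*, *Slc38a1*, *Slc7a1*, *Slc1a4*, *Slc1a5*, *Slc7a11*, *Slc38a4* and *Slc1a3*. Of these neighbours, *Slc7a1* (49.0 to 49.7 TPM) and *Slc1a4* (44.3 to 49.8 TPM) overlapped between libraries and the other pairs did not. At D5 the order was *Slc38a2*, *Slc7a5*, *Slc3a2*, *Slc1a4*, *Slc38a1*, *Slc7a1*, *Slc1a3*, *Slc1a5*, *Slc7a11* and *Slc38a4*, and no neighbours overlapped. The first 3 ranks were the same at both times, while *Slc1a4* moved ahead of *Slc38a1* and *Slc7a1*. *Slc38a2* made up 31.0% to 33.4% of the summed TPM of the 10 genes at D0 and 43.9% to 46.0% at D5. *Slc7a5* made up 29.5 ± 0.774% and then 22.8 ± 0.729% (SD, n = 3), and *Slc1a4* 4.92% to 5.39% and then 4.81% to 4.96%, where the groups overlapped. TPM divides by the length of all annotated exons of a gene, so orders, ratios and shares between genes depend on that length. It is not scaled by TMM, so differences of summed TPM between the times depend on the scaling. For *Slc38a2*, the means went from 742 to 674 CPM but from 291 to 237 TPM, a larger decline in TPM. In mean CPM at D0, *Slc38a1* (260) lay above *Slc3a2* (187).

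The directions of the members held when the library scaling was changed, and the sizes depended on it. With total gene counts the median log2 fold change of all genes was -0.08, and with ERCC spike-ins it was -0.58. With the spike-ins, *Slc7a11*, *Slc7a1*, *Slc38a1* and *Slc7a5* had log2 fold changes of -3.09, -2.30, -1.92 and -1.56, and *Slc1a5*, *Slc3a2* and *Slc1a4* of -1.41, -1.35 and -1.27. These 7 genes and *Slc38a4* were called lower there too, with adjusted p up to 0.047 for *Slc1a4*, and the bound on *Slc1a3* was 285-fold.

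**Figure D3:**
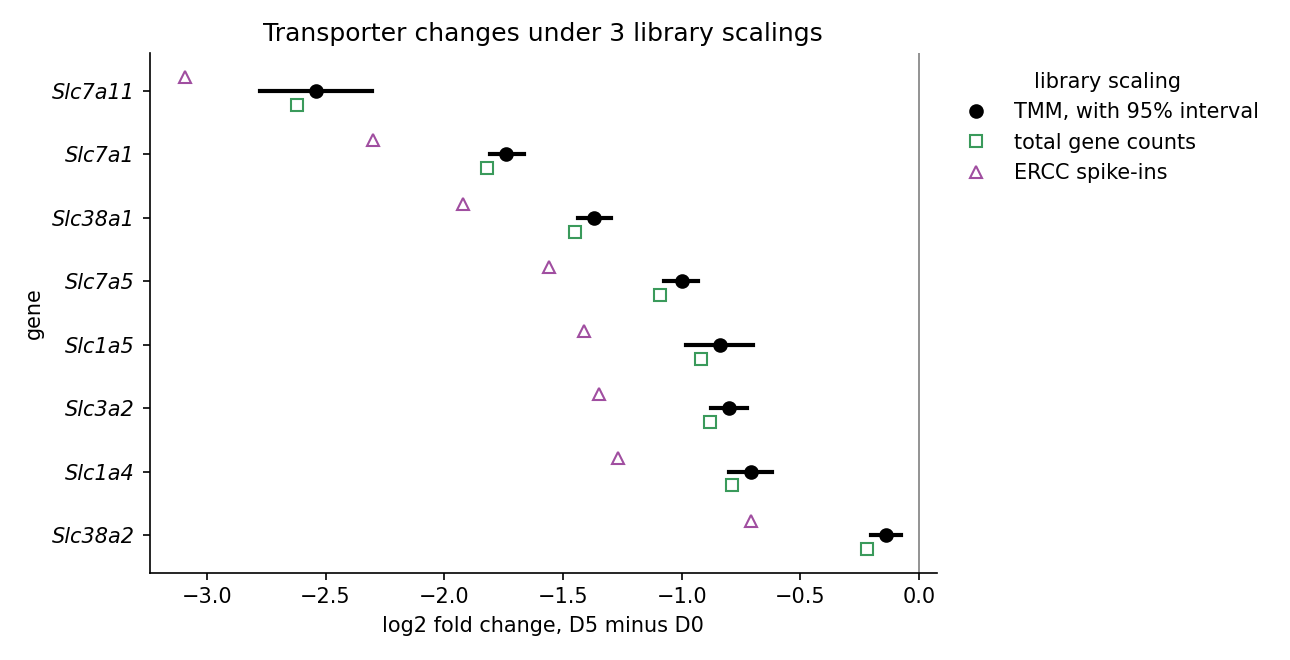
Log2 fold change at D5 against D0 (x axis) of 8 transporter genes (y axis) under 3 library scalings: TMM (black, with a normal 95% interval), total gene counts (green squares) and ERCC spike-ins (purple triangles). *Slc1a3* and *Slc38a4* are left out because a group was under the detection limit. Every point lies below 0, from -3.09 for *Slc7a11* with spike-ins to -0.14 for *Slc38a2* with TMM.

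The other 43 transporters listed from the amino acid carrier families moved in both directions. Of the 23 that were tested, 12 rose (52.2%, against 42.2% of all genes tested), 8 fell (34.8%, against 40.8%) and 3 had no call, with a median log2 fold change of 0.16. With the spike-ins, 6 rose and 5 fell. The remaining 20 were too low to test, of which 18 had 3 counts or fewer in each library. With the same minimum of 100 counts, which holds for the lists that follow too, the largest rises besides *Slc7a2* were those of the leucine carriers *Slc43a2* (LAT4), from 10.8 ± 0.419 to 46.5 ± 1.27 CPM (log2 fold change 2.10, adjusted p = 2.1e-25), and *Slc43a1* (LAT3), from 1.86 ± 0.174 to 5.06 ± 0.0983 CPM (1.44, adjusted p = 3.2e-11, and adjusted p = 0.21 with the spike-ins; SD, n = 3, edgeR). The largest falls were those of *Slc6a17*, a neutral amino acid transporter of synaptic vesicles, from 239 ± 2.52 to 53.3 ± 0.517 CPM (-2.17), of *Slc38a6* (-0.93) and of the amino acid carrier *Slc36a4* (-0.76). Below that minimum, *Slc6a19* had the largest fitted rise of the tested genes in this list. It went from 4, 5 and 1 counts to 84, 106 and 93 (5.44, edgeR adjusted p = 5.0e-17) and was named after its values were seen.

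Of 18 enzymes that make or use glutamate or glutamine, 16 were tested, and 7 rose (43.8%, against 42.2% of all genes tested), 8 fell (50%, against 40.8%) and 1 had no call. These shares were near those of all genes, and with the spike-ins 2 rose and 5 fell. *Glul*, glutamine synthetase, rose from 19.1 ± 0.537 to 139 ± 1.46 CPM (SD, n = 3, log2 fold change 2.86, SE 0.041, edgeR adjusted p = 7.0e-32). The alanine aminotransferases *Gpt* (2.03) and *Gpt2* (0.40) rose with TMM scaling, and *Gpt2* turned to -0.15 with the spike-ins. The largest falls were those of *Aldh18a1*, which opens proline synthesis from glutamate (-1.34), of *Asns*, asparagine synthetase (-1.04), and of *Gclm* (-1.04).

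Of 20 genes of the amino acid response, that is *Atf4*, its upstream kinases and known targets, 15 fell (75.0%, against 40.8% of all genes tested) and 5 rose (25.0%, against 42.2%), with a median log2 fold change of -0.57. With the spike-ins, 9 fell and 2 rose. *Atf4* itself fell from 274 ± 11.4 to 230 ± 10.6 CPM (SD, n = 3, log2 fold change -0.25, edgeR adjusted p = 2.4e-07), a call that was lost with the spike-ins, and was named after its values were seen. The largest falls were those of *Stc2* (-3.74), *Atf3* (-2.05) and the kinase gene *Eif2ak3* (-2.02). The largest rises were those of the hormone gene *Fgf21*, from 0.660 ± 0.264 to 59.9 ± 4.29 CPM (6.48), of *Vldlr* (5.22) and of *Cebpb* (1.5), whose call was lost with the spike-ins (0.95, edgeR adjusted p = 0.15).

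Of 29 genes of mTORC1 and its amino acid sensing, 28 were tested, and 17 rose (60.7%, against 42.2% of all genes tested), 8 fell (28.6%, against 40.8%) and 3 had no call, with a median log2 fold change of 0.32. The largest rises were those of *Lamtor4*, a Ragulator subunit (1.99), and of the sestrins *Sesn1* (1.44) and *Sesn3* (1.38). *Sesn2*, a leucine-binding sestrin that is also a target of ATF4, fell (-0.96). *Rheb*, the GTPase that activates mTORC1 (-0.76), and *Seh1l*, a subunit of GATOR2 and the nuclear pore (-0.56), fell as well. With the spike-ins, 1 gene of this list rose and 2 fell, and the calls of *Sesn1* (0.90, edgeR adjusted p = 0.17), *Sesn3* (0.81, adjusted p = 0.22) and *Seh1l* (-1.12, adjusted p = 0.081) were lost. The counts of these 4 lists describe the genes chosen and were not tested as sets.

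**Figure D4:**
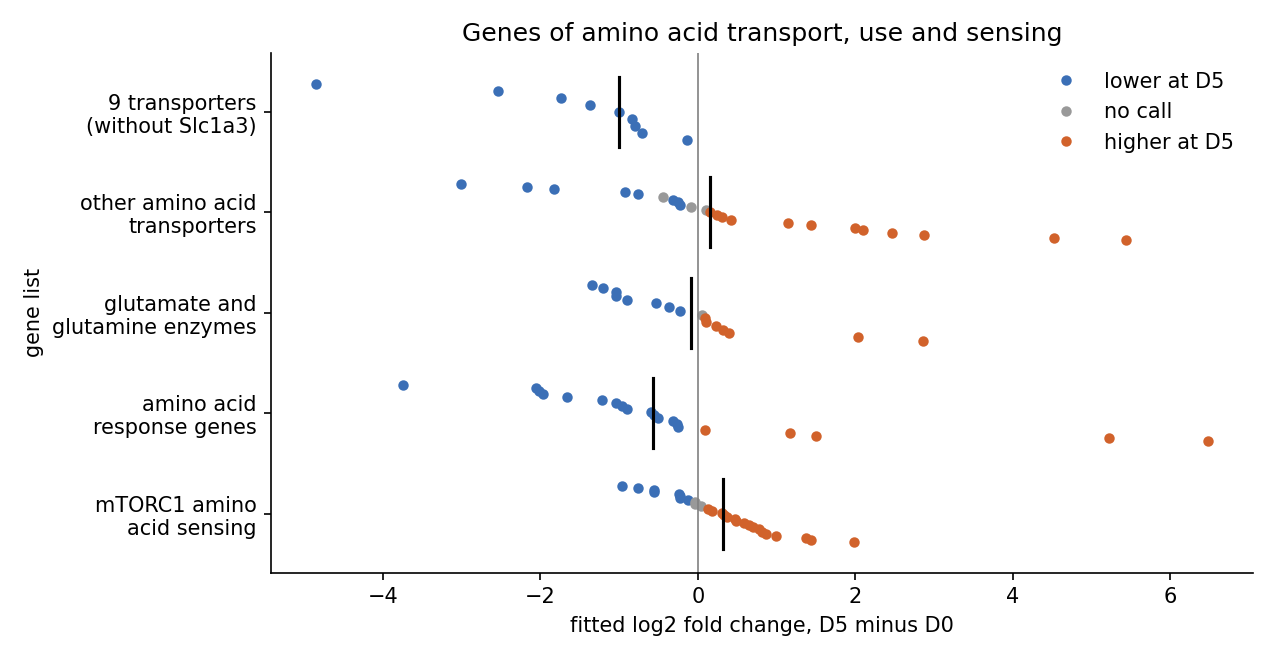
Fitted log2 fold change at D5 against D0 (x axis) of each tested gene in 5 rows (y axis): the transporters without *Slc1a3*, the other amino acid transporters, the glutamate and glutamine enzymes, the amino acid response genes and the mTORC1 genes. Orange points were called higher, blue lower and grey neither, and black lines are medians, at -1.0, 0.16, -0.08, -0.57 and 0.32. Fitted values of genes under the detection limit at one time, such as *Slc38a4*, depend on the prior count.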

How the data were processed

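RNA-seq libraries of C2C12 cells at D0 and D5 (n = 3 each) were used. The authors aligned reads to GRCm38 and deposited raw counts per gene from featureCounts, without normalization. The labels and the methods name different aligners, and the annotation release, strand setting and handling of multi-mapping reads are not given in the sources used here. ERCC rows (92) and an unnamed row equal to each column's total were left out of library sizes. From the deposited counts, edgeR 4.0.16 (R 4.3.3) gave TMM factors, CPM and, after filterByExpr, quasi-likelihood tests, with a Benjamini-Hochberg threshold of 0.05. SE is |log2 fold change| over the root of F. TPM used exonic lengths of GENCODE M21, which 99.9% of gene rows had. Within groups, chi-square over degrees of freedom was 2.28 to 3.71 per pair, above sampling noise. Members and lists were chosen with earlier results of these data known. Of each list, up to 3 rises and 3 falls were named by size among called genes with at least 100 mean counts in a group and no overlap. Alternatives were DESeq2 1.42.0, other scalings and filters, each library left out and a replicate block. Only the edgeR fit was tested on simulated counts, in which few genes changed, unlike in these data. Some listed genes are counted but not reported by name here.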

Additional observations from a re-analysis of the deposited data

How the results depend on the processing

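With each library left out in turn, the 9 transporters stayed lower and no named gene changed direction, but *Slc1a2* (without D0 replicate 1 or 2) and *Slc7a3* (without D0 replicate 2 or 3) became too low to test, and the other transporters had 6 to 8 falls. The bound on *Slc1a3* ranged from 411-fold to 435-fold. Of the other alternatives, scaling to the ERCC spike-ins moved most: the other transporters then had 6 rises and 5 falls, the glutamate and glutamine enzymes 2 and 5, the response genes 2 and 9, and the mTORC1 genes 1 and 2, and *Gpt2* reversed to -0.15. Among named genes, the calls of *Slc38a2*, *Atf4*, *Cebpb*, *Seh1l*, *Sesn1*, *Sesn3*, *Slc43a1* and *Slc7a6* were lost with it. The spike-in share differed between D5 libraries from 0.720% to 2.087%, and the cause was not tested. The bound on *Slc1a3* was 424-fold with TMM, 400-fold with total counts and 285-fold with spike-ins. Asking for 10 counts in every library removed *Slc38a4*, *Slc1a2*, *Slc1a6*, *Slc6a19*, *Slc7a3* and *Slc7a7* from the test and left 9 rises and 6 falls among the other transporters. With the replicate number as a block, 9 transporters were called lower, as without it, and no call changed. Deviations of same-numbered libraries correlated at 0.027, 0.104 and 0.047, each the highest for its number, but not each above 0.1, so the numbers were not taken to pair the libraries. Depth limits *Slc38a4* at D5 and *Slc1a3* at D0, where folds are given against the limit of 3 counts per library.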
